A study of Mus musculus with 6 samples.

Results

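Voltage-gated sodium and calcium channels were measured in cultured mouse retinal ganglion cells (RGCs), the neurons whose axons form the optic nerve. The members were all Ensembl mouse genes named Scn followed by a number and the letter a or b, together with all genes whose names begin with Cacna, Cacnb or Cacng. Epithelial sodium channel genes (Scnn) were left out. The rule found 40 genes among the 43346 Ensembl genes in the tables, 14 for sodium and 26 for calcium channels. Of these, 36 were among the 15747 genes that passed the filter on low counts. The 4 that did not pass were Scn4a, the sodium channel of skeletal muscle, Scn10a, a sodium channel of sensory ganglia, Cacng6 and Cacna2d4, whose counts ranged from 0 to 14 per library.

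RNA-seq was done on RGCs that received a control AAV encoding EGFP, an AAV encoding Sox11 and EGFP, or an AAV encoding Sox11K91A and EGFP, with 2 replicates per group. Sox11 is a transcription factor of the developing nervous system, and Sox11K91A carries alanine in place of lysine at position 91, a site of SUMO attachment. The cells were purified by immunopanning with CD90.1 (the product of Thy1), grown with forskolin, BDNF and CNTF, and received 1.5 μl of AAV at about 100000 vg per cell, 4 h after plating of 250000 cells per well. RNA was taken 72 h after plating, so each group is a bulk population at a single time. The methods give embryonic day 18 as the age for RNA-seq and postnatal day 2 for the general culture, while the deposited tables are named for P0, so the age of the sequenced cells is uncertain. All groups carry EGFP, and no library came from cells without virus.

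Voltage-gated sodium channels open on depolarization and carry the rising phase of the action potential, and each is built from a pore-forming α subunit with auxiliary β subunits that set gating and tether the channel to adhesion molecules and the cytoskeleton. Voltage-gated calcium channels turn depolarization into calcium entry and have a pore-forming α1 subunit, which gives them their type (L, P/Q, N, R or T), an intracellular β subunit and an extracellular α2δ subunit. Most γ subunits are instead known as TARPs, which traffic and modulate AMPA-type glutamate receptors. RGCs fire trains of action potentials along the optic nerve, and the α subunits Scn2a and Scn8a are known for their place at unmyelinated axon, initial segment and node.

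The expected counts of the 6 libraries summed to between 27521982 and 37061718. Levels are given as CPM, counts scaled to a common library size. The CPM of Sox11 itself averaged 283 ± 69.0 in the control, 11884 ± 3828 with Sox11 AAV and 9498 ± 3497 with Sox11K91A AAV (SD, n = 2), 41.6-fold and 33.0-fold above control in limma-voom. Control replicate 2 and Sox11 replicate 2 were set off from the rest by the second principal component (19.8% of the variance), and they had the lowest levels of Xist, the RNA of the inactive X chromosome, at 95.9 and 254 CPM against 400 to 526 CPM in the other 4. The calls that differ without these libraries, or with a term for them in the fit, are therefore named beside the results. Of 10 RGC markers, Slc17a6, Nefl and Thy1 were called lower with Sox11 and Slc17a6 with Sox11K91A, and none was called higher. Tubb3 averaged 1100 CPM in control, 1372 with Sox11 and 1504 with Sox11K91A, and Isl1 265, 275 and 281 CPM. The summed level of the list was 10605 to 11444 CPM in control, 5334 to 7967 CPM with Sox11 and 6762 to 8378 CPM with Sox11K91A, and Nefl, at a mean of 6715, 3146 and 3712 CPM, made up the largest part of it. The summed level of 8 amacrine cell markers was 387 to 638, 368 to 487 and 451 to 487 CPM in the same order. Pax6 was the largest part of it (means of 348, 352 and 369 CPM), and Slc6a9 was called lower with both viruses. Gad1 held 2.83 and 2.23 CPM in control replicate 2 and Sox11 replicate 2, against 17.2 to 36.2 CPM in the rest. Pax6, Slc32a1, Tfap2a, Tfap2b and Chat were also lowest in these libraries, while Gad2 and Slc6a9 did not split this way. The summed level of 8 markers of Müller glia and astrocytes was 103 to 108, 274 to 300 and 269 to 314 CPM. Nearly all of the last sum was Glul (means of 101, 284 and 289 CPM), which was called higher with both viruses. Of the others, Pdgfra was called higher and S100b lower with Sox11, Rlbp1 averaged 2.44, 0.44 and 0.32 CPM, and Gfap was at 0 in all 6 libraries. In bulk RNA, fewer cells of a type and less RNA per cell cannot be told apart, and the part of these shifts in the channel results was not tested.

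The sodium channel α genes are close paralogs. Scn3a, Scn2a, Scn1a, Scn9a and Scn7a lie in a cluster on mouse chromosome 2 and Scn8a on chromosome 15. The longest coding sequences in GENCODE M21 were 83.2% identical between Scn2a and Scn3a over 5826 aligned bases, the highest value among Scn1a, Scn2a, Scn3a, Scn8a and Scn9a, and 70.2% between Scn8a and Scn9a, the lowest. RSEM's own error of the count (posterior SD) was at most 0.0900% of the count in any library for the same 5 genes.

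With Sox11, 5 of the 36 tested channel genes rose against control and 5 fell. Those that rose were the sodium channel genes Scn3a, Scn9a and Scn3b and the calcium channel genes Cacna1e and Cacna1h. Those that fell included the sodium channel β subunit Scn2b, the calcium channel β subunit Cacnb1 and the TARPs Cacng3 and Cacng8. With Sox11K91A, Cacna1e, Cacna1h and Scn3b rose, and Cacng3 was among the 2 that fell. A gene was called at an FDR under 0.05 (limma-voom, Benjamini-Hochberg over all genes tested) with a fold change above 1.2. Over all 15747 genes, 9.96% were called up and 10.2% down with Sox11, and 5.81% up and 4.81% down with Sox11K91A, so the members' shares of 13.9% in each direction with Sox11 and of 8.33% and 5.56% with Sox11K91A lay near those of all genes. The groups did not overlap in 8 members that were higher and 13 that were lower with Sox11, and in 8 and 12 with Sox11K91A, where 30.9%, 30.6%, 31.2% and 30.7% of all genes did the same. The median log2 fold change of the 36 members was -0.26 with Sox11 and -0.16 with Sox11K91A, against 0.01 and 0.02 over all genes tested. Both comparisons use the same 2 control libraries, so their values are given side by side and are not independent.

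**Figure D1:**
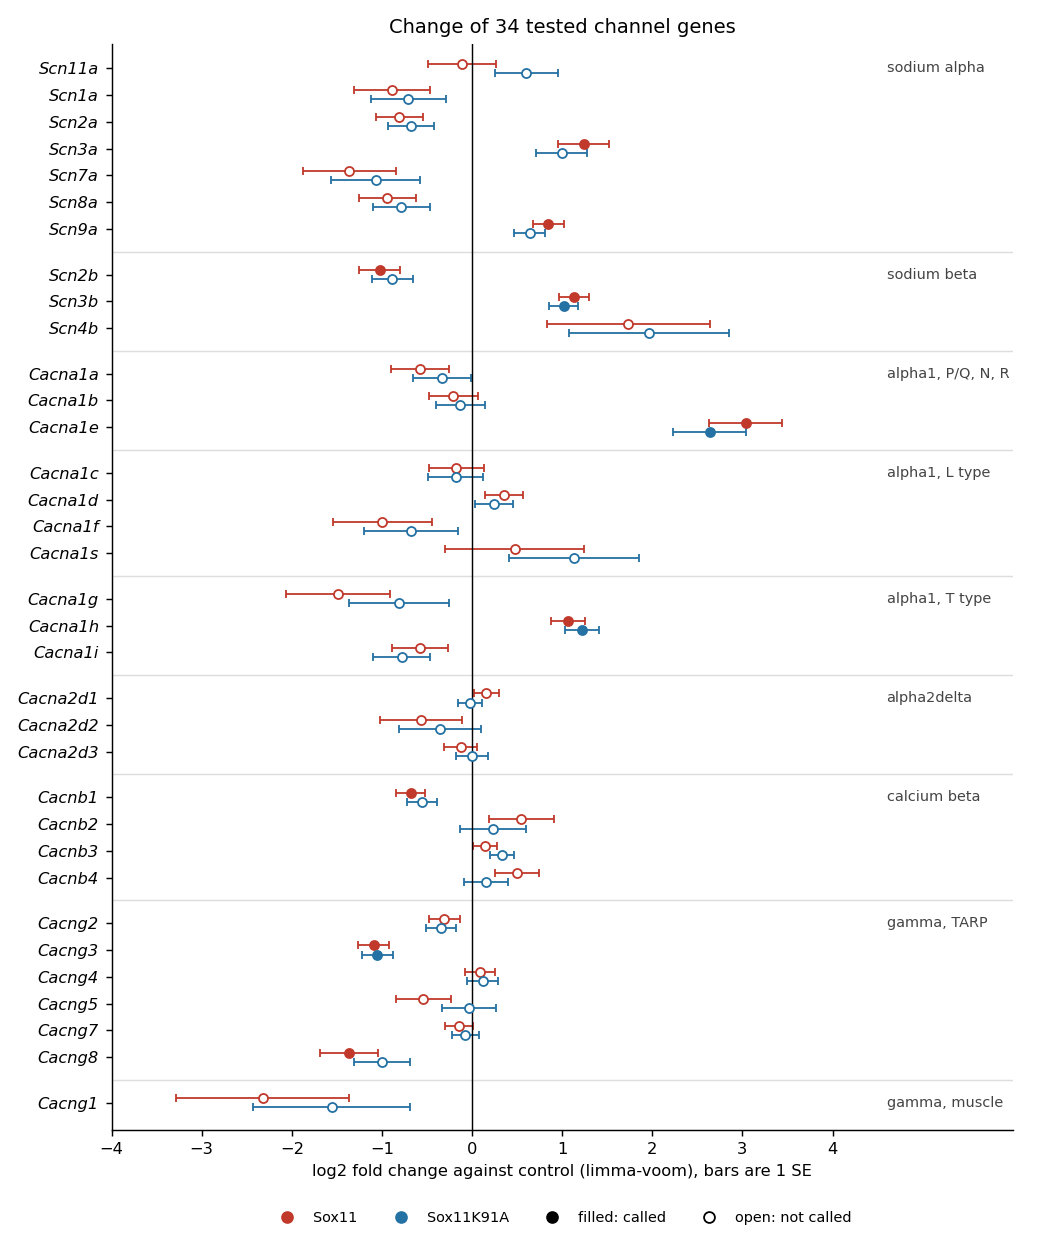
Log2 fold change against control from limma-voom (x axis) of 34 tested channel genes, grouped by subunit class (y axis), for Sox11 in red and Sox11K91A in blue, with bars of 1 SE. Filled points are called genes: Cacna1e, at 3.04 and 2.64, lies farthest from 0 among them.

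Among the sodium channel α subunits, Scn3a and Scn9a rose with Sox11, and none fell past the threshold in limma-voom. Scn3a, the α subunit best known from embryonic and injured neurons, held 156 and 88.5 CPM in the control libraries, 240 and 322 CPM with Sox11, and 258 and 214 CPM with Sox11K91A. All 4 libraries with Sox11 or Sox11K91A were above both controls. The log2 fold change was 1.24 ± 0.29 with Sox11 (SE; adjusted p = 0.0299), which passed the test, and 0.99 ± 0.29 with Sox11K91A (adjusted p = 0.0698), which did not. Scn9a, the α subunit known for setting the threshold of pain-sensing neurons, held 104 and 80.6 CPM in control, 151 and 179 CPM with Sox11, and 141 and 145 CPM with Sox11K91A. Its groups did not overlap either, and its log2 fold change was 0.84 ± 0.17 with Sox11 (adjusted p = 0.0220) and 0.64 ± 0.17 with Sox11K91A (adjusted p = 0.0578). Without control replicate 2 and Sox11 replicate 2, neither Scn3a nor Scn9a was called with Sox11, and both were called with Sox11K91A. That fit held a lone control library and a lone Sox11 library. The log2 fold changes in it were 0.62 with Sox11 and 0.59 with Sox11K91A for Scn3a, and 0.54 and 0.46 for Scn9a. All of these were smaller than in the fit of all libraries.

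Scn2a, an α subunit of young axons, and Scn8a, the main α subunit of mature initial segments and nodes, did not pass the test with either virus. DESeq2 called both of them lower with Sox11 and neither with Sox11K91A. Scn2a held 193 and 120 CPM in control, 101 and 75.5 CPM with Sox11, and 87.0 and 104 CPM with Sox11K91A. Scn8a held 197 and 98.3 CPM in control, 82.7 and 64.0 CPM with Sox11, and 75.3 and 86.8 CPM with Sox11K91A. In both genes all 4 libraries were below both controls, while the controls themselves lay apart by about as much as the groups did. For Scn1a, an α subunit prominent in inhibitory neurons, the levels were 105 and 47.6 CPM in control, 50.8 and 29.1 CPM with Sox11 and 36.6 and 51.4 CPM with Sox11K91A, so both virus groups overlapped the control. With a term in the fit for the 2 libraries that stood apart, Scn1a, Scn2a and Scn8a were called lower with both viruses. Other α genes were scarce: Scn11a, a sensory neuron subunit, held 2.96 to 6.92 CPM and Scn7a, a sodium-sensing relative, 0.51 to 2.28 CPM, and neither passed the test.

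Of the β subunits of the sodium channel, Scn3b rose with both viruses and Scn2b fell with Sox11. Scn3b, which is abundant in developing brain, held 119 and 132 CPM in control, 249 and 302 CPM with Sox11, and 276 and 232 CPM with Sox11K91A. The controls were close together and every other library lay above them, with a rise of 2.18-fold with Sox11 (log2 1.13 ± 0.17, adjusted p = 0.0127) and 2.02-fold with Sox11K91A (log2 1.01 ± 0.17, adjusted p = 0.0208). Scn3b lies on chromosome 9 (GRCm38 chr9:40269217-40291618), and none of its exons overlapped another gene in GENCODE M21. Scn2b, which is linked to α subunits by a disulfide bond, held 68.3 and 50.2 CPM in control, 34.6 and 24.1 CPM with Sox11, and 29.8 and 33.7 CPM with Sox11K91A. It fell with Sox11 (log2 -1.03 ± 0.23, adjusted p = 0.0273), and with Sox11K91A its log2 fold change of -0.88 ± 0.23 did not pass the test (adjusted p = 0.0528), although it did with DESeq2 (0.00737), with the term for the libraries that stood apart (0.0121) and without both of them (0.0145). Scn4b, the other disulfide-linked β subunit and the neighbour of Scn2b on chromosome 9, had 1 to 14 counts per library and did not pass.

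**Figure D2:**
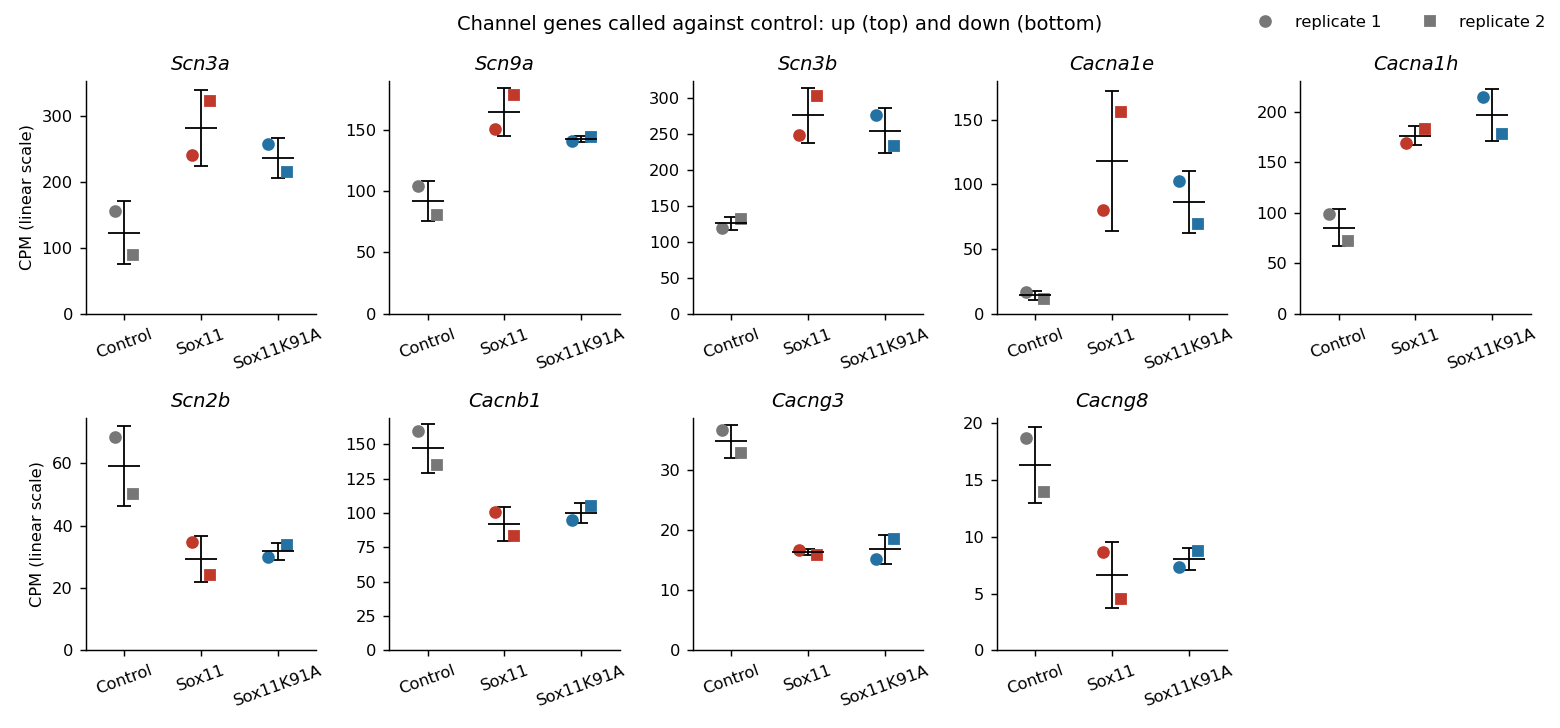
CPM on linear scales starting at 0 (y axes) of 9 called channel genes in the 3 groups (x axes), with circles for replicate 1, squares for replicate 2, and the mean ± SD of each group in black. Every Sox11 and Sox11K91A library lies above both controls in the 5 upper panels and below both in the 4 lower panels; for Cacna1e the controls are at 16.6 and 11.6 CPM and the others between 69.1 and 156 CPM.

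Of the calcium channel α1 subunits, Cacna1e and Cacna1h rose with both viruses. Cacna1e, the pore of R-type channels, held 16.6 and 11.6 CPM in control, 79.9 and 156 CPM with Sox11, and 103 and 69.1 CPM with Sox11K91A. Every library with either virus lay far above both controls, and the Sox11 libraries differed more from each other than the Sox11 mean from the Sox11K91A mean. The rise was 8.21-fold with Sox11 (log2 3.04 ± 0.40, adjusted p = 0.0121) and 6.21-fold with Sox11K91A (log2 2.64 ± 0.40, adjusted p = 0.0199), the largest among the called members. Cacna1h, a pore of the low-threshold T-type channels, held 98.2 and 72.1 CPM in control, 169 and 183 CPM with Sox11, and 215 and 178 CPM with Sox11K91A. Its groups did not overlap with control, and its rise was 2.09-fold (log2 1.06 ± 0.19, adjusted p = 0.0169) and 2.32-fold (log2 1.22 ± 0.19, adjusted p = 0.0199).

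The other T-type pores did not pass the test. Cacna1g, the T-type pore of thalamic bursting, held 135 and 61.9 CPM in control, 58.3 and 18.9 CPM with Sox11, and 40.2 and 68.0 CPM with Sox11K91A, so Sox11K91A overlapped the control. Cacna1i held 20.9 and 25.2 CPM in control, 10.9 and 21.1 CPM with Sox11 and 15.4 and 11.6 CPM with Sox11K91A. The pores of P/Q-type and N-type channels, which trigger transmitter release, were the most abundant α1 genes in both control libraries and were not called: Cacna1a held 123 to 307 CPM and Cacna1b 162 to 298 CPM over all 6 libraries, with control replicate 1 the highest for both. With the term for the libraries that stood apart, Cacna1g and Cacna1a were called lower with both viruses. The L-type pores were at low to moderate level and were not called. Cacna1c held 32.9 to 66.8 CPM, Cacna1d 24.9 to 40.6 CPM, Cacna1s, the skeletal muscle pore, 0.78 to 3.71 CPM, and Cacna1f, the pore of photoreceptor synapses, 0.33 to 0.70 CPM. About 20.0% of the exon bases of Cacna1s overlap a gene on the opposite strand, and the use of strand in counting is not given in the sources used here.

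Of the β and α2δ subunits of calcium channels, Cacnb1 was called with Sox11. Cacnb1 held 160 and 135 CPM in control, 101 and 83.2 CPM with Sox11, and 94.6 and 105 CPM with Sox11K91A. Its groups did not overlap with control, and its log2 fold change was -0.68 ± 0.16 with Sox11 (adjusted p = 0.0325), which passed, and -0.56 ± 0.16 with Sox11K91A (adjusted p = 0.0729), which did not. With Sox11K91A it was called by DESeq2 (adjusted p = 0.0240), with the term for the libraries that stood apart (log2 -0.69, adjusted p = 0.0238 in limma-voom) and without both of them (log2 -0.68, adjusted p = 0.0192). Cacnb3, the most abundant β subunit of calcium channels in these cells by TPM, held 244 to 322 CPM and was not called with either virus. Cacnb4, the β subunit affected in lethargic mice, held 44.2 to 89.6 CPM and Cacnb2, the cardiac β subunit, 4.98 to 11.8 CPM, and neither was called. Of the α2δ subunits, which carry channels to the surface, Cacna2d1 held 164 to 201 CPM, Cacna2d2 96.9 to 293 CPM and Cacna2d3 16.6 to 21.6 CPM. None of the α2δ genes passed the test, and the highest value of Cacna2d2 was that of control replicate 1.

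Among the TARPs, Cacng3 fell with both viruses and Cacng8 with Sox11, and the other 4 were not called. Cacng3, a TARP of forebrain synapses, held 36.7 and 32.8 CPM in control, 16.6 and 15.9 CPM with Sox11, and 15.1 and 18.5 CPM with Sox11K91A. Replicates lay close together in every group, all 4 virus libraries were near the same level, and the fall was 2.13-fold (log2 -1.09 ± 0.17, adjusted p = 0.0135) and 2.07-fold (log2 -1.05 ± 0.17, adjusted p = 0.0208). Cacng8, a TARP of hippocampal AMPA receptors, held 18.7 and 13.9 CPM in control, 8.70 and 4.56 CPM with Sox11, and 7.32 and 8.71 CPM with Sox11K91A. It fell with Sox11 (log2 -1.37 ± 0.33, adjusted p = 0.0319), and with Sox11K91A a 2.00-fold lower level (SE of 0.31 on the log2 scale) did not pass (adjusted p = 0.0821), although it did with DESeq2 (0.0357), with the term for the libraries that stood apart (0.0175) and without both of them (0.0161). Cacng2, known as stargazin, held 78.5 to 119 CPM, Cacng4 181 to 240 CPM, Cacng5 26.4 to 62.3 CPM and Cacng7 140 to 180 CPM, and of these Cacng5 was called lower with Sox11 once the term for the libraries that stood apart was in the fit. Cacng1, the γ subunit of muscle calcium channels, had 1 to 19 counts per library.

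The calls moved with single libraries and with the handling of those that stood apart. Without Sox11 replicate 2, 0 members were called with Sox11 (12 had an unadjusted p under 0.05), and without control replicate 2 or without Sox11K91A replicate 1, 0 members were called with Sox11K91A (18 and 7). In these fits the absence of calls held for all genes tested in the comparison named, while the other comparison with control kept calls. For the called members given here, every Sox11 library lay beyond both controls. The direction within any pair of libraries was therefore fixed in advance and is no further support, and only the size could vary. Sox11 replicate 1 over control replicate 1 gave log2 differences from 0.54 for Scn9a to 2.27 for Cacna1e among those that rose. Among those that fell, the same pair gave -0.66 for Cacnb1 to -1.14 for Cacng3. In the pair that stood apart, Sox11 replicate 2 over control replicate 2 gave 1.15 to 3.76 and -0.70 to -1.61. Leaving out both libraries that stood apart gave 3 members up and 11 down with Sox11 and 5 up and 13 down with Sox11K91A, where the lone control and Sox11 libraries were assumed to vary like the Sox11K91A libraries. The calls added with Sox11 were the lower genes Scn2a, Scn8a, Cacna1a, Cacna1b, Cacna1c and Cacna2d2, and in control replicate 1, the sole control in that fit, these 6 genes lay above control replicate 2. With Sox11K91A the same fit added these 6, Scn1a, Cacna1g, Scn2b, Cacnb1 and Cacng8 to the lower genes, and Scn3a and Scn9a to the higher genes.

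Levels were set against each other within each subunit class in deposited TPM, which divides by transcript length, as the share of the summed TPM of the class in each library. These shares restate the same reads as the folds above and carry no test. In the control libraries Scn2a was the most abundant sodium channel α subunit, with a share of 36.0% and 31.3%, ahead of Scn3a, at 19.6% and 19.3%, and Scn8a, at 17.5% and 18.6%, which lay within 3 percentage points of each other. With Sox11 the share of Scn3a was 41.6% and 55.2% and with Sox11K91A 47.5% and 37.3%, so that Scn3a held the largest share in all 4 of these libraries. The share of Scn2a was then 20.7% and 10.7% with Sox11 and 16.8% and 21.7% with Sox11K91A. The TPM ratio of Scn3a over Scn2a was 0.544 and 0.616 in control, 2.01 and 5.18 with Sox11, and 2.83 and 1.72 with Sox11K91A. The sum over all 10 α genes was 202 and 92.5 TPM in control, 167 and 177 TPM with Sox11, and 156 and 154 TPM with Sox11K91A, and the controls enclosed all other libraries.

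**Figure D3:**
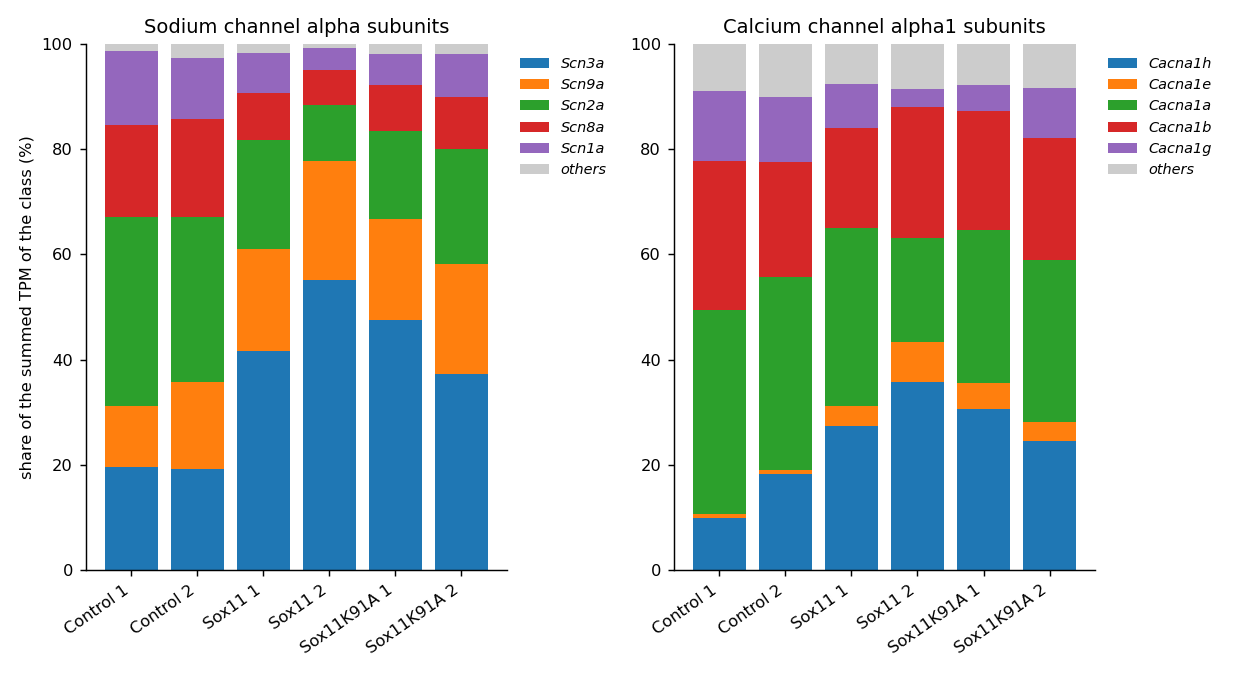
Share in percent of the summed deposited TPM of each class (y axis, stacked to 100) held by each gene in each of the 6 libraries (x axis), for sodium channel α and calcium channel α1 subunits. Scn3a rises from 19.6% and 19.3% in control to between 37.3% and 55.2% and Cacna1h from 9.95% and 18.2% to between 24.6% and 35.7%.

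For the calcium channel α1 genes the same account showed Cacna1a, at 38.9% and 36.6%, and Cacna1b, at 28.2% and 21.9%, as the leading pores in control. Cacna1h held 9.95% and 18.2% in control, 27.3% and 35.7% with Sox11, and 30.6% and 24.6% with Sox11K91A. The share of Cacna1g was 13.4% and 12.4% in control and 3.36% to 9.59% in the other libraries, and the TPM ratio of Cacna1h over Cacna1g was 0.742 and 1.48 in control, 3.28 and 10.6 with Sox11, and 6.17 and 2.56 with Sox11K91A. Cacna1e, in spite of the largest fold, held 0.64% and 0.75% in control and 3.50% to 7.67% with either virus. The sum over the 10 α1 genes was 344 and 187 TPM in control, 281 and 282 TPM with Sox11, and 287 and 262 TPM with Sox11K91A, so the total did not separate the groups.

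Sox11K91A was set directly against Sox11 to ask whether the mutation changed the channels' response. No member passed the test: 0 of 36 were called by limma-voom, edgeR and DESeq2, 0 had an unadjusted p under 0.05 by any of these tools, and the adjusted p was 1.00 for every member. Over all genes tested, limma-voom called 0, which is 0% in each direction. The difference was bounded as follows. For Cacna1e the log2 difference of Sox11K91A from Sox11 was -0.40, with a 95% interval of -1.21 to 0.41, and for Scn3a -0.24 (-0.93 to 0.44). For Scn3b it was -0.11 (-0.51 to 0.28), for Cacna1h 0.15 (-0.30 to 0.61) and for Cacng3 0.04 (-0.41 to 0.48). The groups did not overlap in 5 members that were higher and 2 that were lower with Sox11K91A than with Sox11, where 13.3% and 13.4% of all genes did so, and the median difference over the 36 members was 0.14.

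Genes that work with these channels were followed in 5 lists written by role. Of 16 tested partners of sodium channels, 3 rose and 1 fell with either virus. Over all genes tested, 9.96% were called up and 10.2% down with Sox11, and 5.81% up and 4.81% down with Sox11K91A. Fgf13 and Fgf14, intracellular FGF-like proteins that bind the tail of sodium channels, rose by 1.39 ± 0.20 and 1.60 ± 0.25 on the log2 scale with Sox11 (adjusted p = 0.0126 and 0.0137) and by 1.21 ± 0.20 and 1.19 ± 0.26 with Sox11K91A (adjusted p = 0.0218 and 0.0364). Nedd4l, a ubiquitin ligase that removes sodium channels from the membrane, rose by 1.37 ± 0.27 and 1.17 ± 0.27 (adjusted p = 0.0208 and 0.0413). Fgf11, of the same family as Fgf13, held 69.7 and 67.9 CPM in control and 8.24 to 19.3 CPM in the other libraries, with a log2 fold change of -2.50 ± 0.35 and -2.11 ± 0.33 (adjusted p = 0.0122 and 0.0199). The ankyrins, spectrins and adhesion molecules of the axon initial segment and node in the list (Ank2, Ank3, Sptbn1, Sptbn4, Nfasc, Nrcam, Cntn1 and Tnr) were not called. The median log2 fold change of the list was -0.04 with Sox11 and 0.09 with Sox11K91A.

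Of 17 tested partners of calcium channels, 2 rose and 6 fell with Sox11, and 1 rose and 2 fell with Sox11K91A. The shares of all genes called up and down were 9.96% and 10.2% with Sox11 and 5.81% and 4.81% with Sox11K91A. The RGK proteins are small GTPases that bind calcium channel β subunits and hold back calcium current, and they did not move together. Rem2 rose with both viruses (log2 0.95 ± 0.21, adjusted p = 0.0260, and 1.16 ± 0.21, adjusted p = 0.0249), Rrad fell with both (-2.13 ± 0.35, adjusted p = 0.0146, and -2.34 ± 0.36, adjusted p = 0.0199), and Gem held 28.7 and 19.5 CPM in control and 1.21 to 8.64 CPM in the other libraries, passing with Sox11 (-3.19 ± 0.72, adjusted p = 0.0284) and not with Sox11K91A (-2.29 ± 0.62, adjusted p = 0.0599). Stac and Stac2, adaptor proteins that bind α1 subunits, fell with Sox11 (log2 -3.00 ± 0.73 and -2.44 ± 0.55, adjusted p = 0.0326 and 0.0280). Thbs1, a secreted ligand of α2δ subunits, fell with both viruses (-1.58 ± 0.25, adjusted p = 0.0134, and -1.56 ± 0.25, adjusted p = 0.0199). The median log2 fold change of the list was -0.52 with Sox11 and -0.51 with Sox11K91A.

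The lists of leak and intracellular channels, of pumps and exchangers, and of calcium sensors held more called falls than rises with Sox11. With Sox11K91A each list held too few calls to give a direction: 0 up and 2 down, 0 and 1, and 1 and 1. Beside these lists, 9.96% of all genes rose and 10.2% fell with Sox11, and 5.81% rose and 4.81% fell with Sox11K91A. Of 18 tested leak and intracellular channel genes, 0 rose and 6 fell with Sox11 and 0 rose and 2 fell with Sox11K91A. Unc80, a part of the sodium leak channel complex, fell with both viruses (log2 -2.70 ± 0.49 and -2.17 ± 0.45, adjusted p = 0.0174 and 0.0326), and Orai3, a store-operated calcium channel, did so too (log2 -1.19 ± 0.18 and -1.28 ± 0.19, adjusted p = 0.0134 and 0.0190). Itpr3, an IP3-gated calcium release channel, fell with Sox11 (log2 -1.99 ± 0.46, adjusted p = 0.0288). Of 16 tested pumps and exchangers, 0 rose and 7 fell with Sox11, led by Atp1b1, a β subunit of the sodium pump (-1.92 ± 0.50, adjusted p = 0.0393), and by the sodium, calcium and potassium exchangers Slc24a3 (-1.73 ± 0.47, adjusted p = 0.0441) and Slc24a2 (-1.66 ± 0.37, adjusted p = 0.0267). The only call of this list with Sox11K91A was Atp2b4, a plasma membrane calcium pump (-0.88 ± 0.18, adjusted p = 0.0305). Of 13 tested calcium sensors and buffers, 1 rose and 3 fell with Sox11, Hpcal1 up and Necab2, Camk2b and Hpcal4 down, and with Sox11K91A 1 rose (Hpcal1) and 1 fell (Hpcal4). The median log2 fold changes were -0.45 and -0.32 for the leak and intracellular channels, -0.85 and -0.66 for the pumps and exchangers, and -0.73 and -0.52 for the sensors and buffers, with Sox11 and Sox11K91A in that order.

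**Figure D4:**
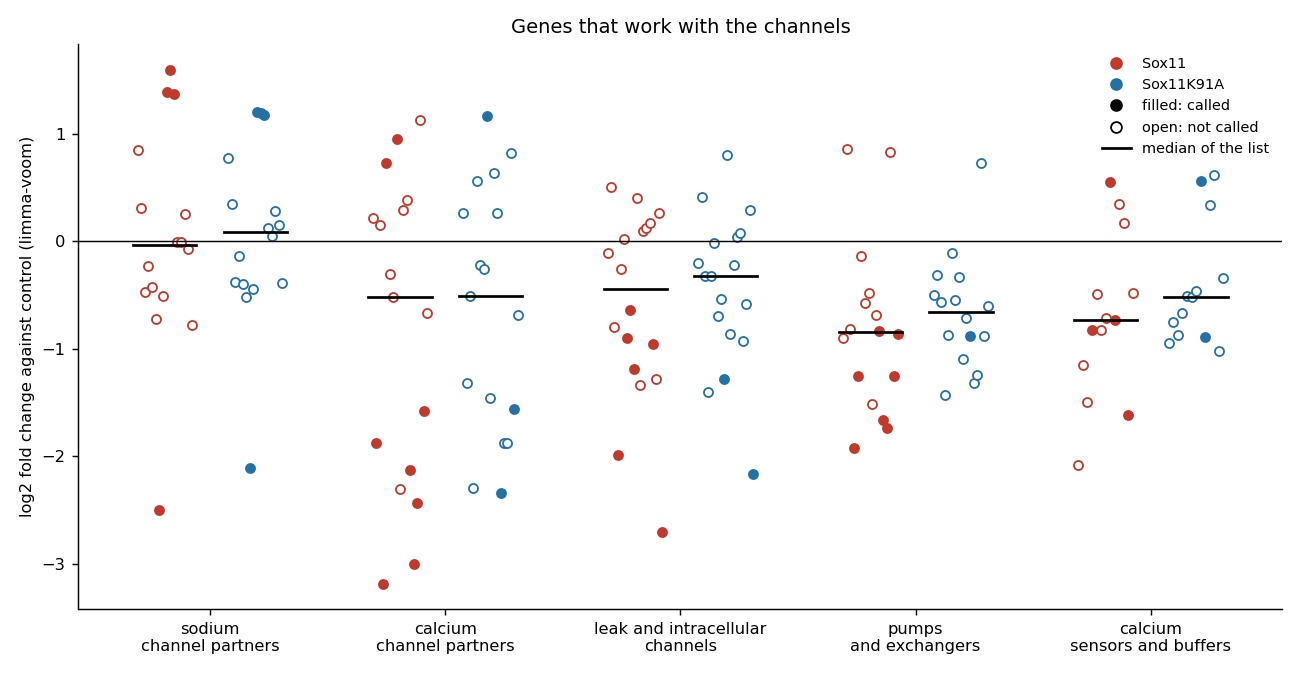
Log2 fold change against control from limma-voom (y axis) of the tested genes of 5 lists (x axis), for Sox11 in red and Sox11K91A in blue, with filled points for called genes and a black line at the median of each list. The medians lie at -0.04 and 0.09 for sodium channel partners and between -0.85 and -0.32 for the other 4 lists.

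The RefSeq promoter windows available for called members were searched for SOX core motifs, since Sox11 binds DNA. RefSeq promoter windows, from 250 bases before to 50 after the start, were held for 30 of the 40 members and 6 of the 10 called members (7 windows, 2 of them for Cacnb1). AACAAT and AACAAAG, read on both strands, were found in 10.7% and 5.85% of all 32851 windows (15.7% held either) and in 0 of the 7 windows of called members. Scn3a, Scn3b and Cacna1h were among the called members without a window. The RefSeq start lay 158581 bases inside the GENCODE M21 gene for Cacna1e, 4662 and 407 for the 2 windows of Cacnb1, 3359 for Cacng8 and 1252 for Cacng3. The windows of these genes therefore do not cover the 5′ end of the gene in GENCODE M21. A match is a description only, and no match says only that these letters were not in these windows. The RefSeq start and the 5′ end of the gene in GENCODE M21 fell within 100 bases of each other for Scn9a, which rose with Sox11, and Scn2b, which fell. The bases upstream of both starts are printed for these genes, read 5′ to 3′ towards the gene from RefSeq windows on GRCm38.p6, 250 bases at chr2:66634963-66635212 on the minus strand for Scn9a and 156 bases at chr9:45117626-45117781 on the plus strand for Scn2b. No part is in capitals because no motif searched was found in them.
Scn9a: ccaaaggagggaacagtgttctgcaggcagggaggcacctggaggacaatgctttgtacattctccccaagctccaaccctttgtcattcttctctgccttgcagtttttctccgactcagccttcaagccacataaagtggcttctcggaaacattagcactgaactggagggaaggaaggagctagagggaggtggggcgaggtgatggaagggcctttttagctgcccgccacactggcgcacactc
Scn2b: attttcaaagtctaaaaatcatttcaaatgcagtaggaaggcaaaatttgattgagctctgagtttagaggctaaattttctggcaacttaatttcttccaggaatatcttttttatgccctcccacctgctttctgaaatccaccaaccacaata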

How the data were processed

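RNA-seq was done on 6 libraries of cultured mouse RGCs. The authors aligned reads to mm10 with STAR and counted them with RSEM, and deposited RSEM expected counts, which were not normalized, and TPM per gene and library. Tool versions and the use of strand are not given in the sources used here. Expected counts were rounded, genes were kept with filterByExpr of edgeR 4.0.16, libraries were scaled by TMM, and all 6 were tested in a single fit with limma-voom (limma 3.58.1, R 4.3.3), two-sided, with Benjamini-Hochberg adjustment over 15747 genes. Genes with an FDR under 0.05 and a fold change above 1.2 were called. Libraries were not stated to come from separate cultures, so p-values measure the spread between these samples, which may be technical. CPM uses TMM-scaled library sizes. Coding sequences were aligned with MAFFT 7.526, and symbols came from GENCODE M21. The fit was tested on simulated data, with far fewer changed genes than were called in these data. It called 6.12% of 2-fold falls and 9.52% of 2-fold rises for Sox11, and 4% and 11.5% for Sox11K91A. Of 4-fold falls and rises it called 47.2% and 67.9% for Sox11, and 47.2% and 66.7% for Sox11K91A. Values of some members and partner genes are not reported here. Called members are given with full values, and so are at most 3 called genes per partner list, direction and comparison with control. A partner gene picked by either comparison can also carry its values from the other. The members and lists were chosen with earlier results of these data known. Alternatives were edgeR's quasi-likelihood test, DESeq2 1.42.0, quality weights, limma-trend on TPM, other size factors, filters, blocks and samples; the crossed block and some partner list fits were added after seeing the data.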

Additional observations from a re-analysis of the deposited data

How the results depend on the processing

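No member called against control changed direction in any of the 18 alternatives. Of 360 values of their fold changes, 286 kept their side of the threshold, 53 lost the call and 21 gained it. For Sox11, the 5 members up became 3 without control replicate 2 and Sox11 replicate 2, and the 5 down became 2 with sample quality weights, with limma-trend on log2(TPM + 1) and with log2(TPM + 0.1), 3 in a fit of the 2 groups compared, 11 with a block for the libraries that stood apart and 11 without both of them. For Sox11K91A, the 3 up became 5 with DESeq2 and 5 without both libraries, and the 2 down became 5 with DESeq2, 1 with either TPM scale, 10 with the block for the libraries that stood apart and 13 without both. Leaving out 1 library gave 0 to 5 up and 0 to 11 down for Sox11 and 0 to 5 up and 0 to 3 down for Sox11K91A, and where a group was left with 1 library, it was assumed to vary like the others. Over all genes, calls with Sox11 ranged from 0 up and 0 down without Sox11 replicate 2 to 2162 up and 2400 down with the block for the libraries that stood apart. With DESeq2 the 5 members down with Sox11 became 7, with Scn2a and Scn8a added. The cause of these changes was not tested. The comparison of Sox11K91A with Sox11 gave 0 members in all settings, with 7 at an unadjusted p under 0.05 without Sox11 replicate 1.

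The replicate number as a block gave 5 members up and 5 down with Sox11, 3 up and 3 down with Sox11K91A and 0 between the viruses, and it changed no member's call but that of Scn2b, which it added to those lower with Sox11K91A. The numbers do not pair the libraries: deviations of replicate 1 from the group mean correlated across genes at 0.229 between control and Sox11, -0.028 between control and Sox11K91A and -0.234 between Sox11 and Sox11K91A. The crossed pairing of the last pair of groups, added after seeing the data, gave 0 members. With 2 libraries per group, the absence of a call says little about changes of 2-fold or less. Few of these were called in the simulated data, which held far fewer changed genes than were called in these data. With fewer changed genes the Benjamini-Hochberg cutoff is stricter, so the simulated shares do not carry over to these data. The adjusted p of Cacnb1, Cacng8 and Scn2b with Sox11 reached 0.202, 0.195 and 0.172 in the least favourable alternative, and that of Cacna1e 0.0636. Cacna2d4, Cacng6, Scn4a and Scn10a were too scarce to test.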

Other observations

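The level of Sox11 differed between libraries, in the order Sox11 replicate 2 (14591 CPM), Sox11K91A replicate 1 (11971 CPM), Sox11 replicate 1 (9178 CPM) and Sox11K91A replicate 2 (7026 CPM). Across these 4 libraries the called members Cacna1e, Scn3a and Scn3b stood in the same order as Sox11, and Cacnb1 and Cacng8 in the opposite order. The called members Cacna1h, Scn9a, Scn2b and Cacng3 stood in neither order. Of the 36 members tested, 13.9% stood in the same order and 25% in the opposite order, against 12.5% and 13.9% of all genes tested. Among all genes called with Sox11 against control, 51.1% of those up stood in the same order and 51.3% of those down in the opposite order. This comparison was chosen after seeing the data and carries no test.

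The tested members are long genes, with a median length of 105 kb from first to last exon against 22.3 kb over all genes tested. Their median transcript length was 5174 bases against 2540 bases. The correlations given here use transcript length and do not measure the span of the gene. Across all genes, the log2 difference of control replicate 2 from control replicate 1 fell with transcript length (Pearson r = -0.38, Spearman rho = -0.45, across 15747 genes that are not independent replicates). In the 36 members, 28 were lower in control replicate 2, with a median difference of -0.43. The correlation of this difference with transcript length was weak (-0.07 and -0.17). The members' fold change with Sox11 correlated with transcript length at r = 0.44 and rho = 0.25 across the 36 genes, against 0.11 and 0.18 over all genes, and that with Sox11K91A at 0.40 and 0.22, against 0.09 and 0.16, and both rest on the same controls. The part of gene or transcript length in the members' changes was not tested.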
